A study of Mus musculus with 9 samples.

Results

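The genes described here are 42 genes of DNA replication and of entry into S phase, the phase of the cell cycle in which DNA is copied. They were chosen by name as a module, with no measured value in the rule, and all 42 are in the deposited count table of 49315 genes. All 42 also passed the filter on low counts that left 15963 genes for testing. They were measured by RNA sequencing in RAW 264.7 cells. This mouse macrophage line came from a tumour induced by Abelson murine leukaemia virus and can form osteoclast-like cells. By the growth notes every culture received the cytokine RANKL at 20 ng/ml after 24 h, and drugs were added at 48 h for a further 24 h. The first group received 140 µM pamidronate with 5.25 µM geranylgeraniol (GGOH), the second 140 µM pamidronate alone, and the third is a control labelled as untreated, here read as RANKL without pamidronate. Each group has 3 libraries, and all groups share the line and, by the growth notes, RANKL. Pamidronate is a nitrogen-containing bisphosphonate that blocks farnesyl diphosphate synthase, and GGOH is an alcohol from which cells can make a lipid that anchors small GTPases. The comparisons ask how the genes differ with the drug, and how they differ when GGOH is added to it.

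DNA replication starts in G1, when the origin recognition complex, Cdc6 and Cdt1 load the Mcm2 to Mcm7 helicase ring onto origins, a step called licensing. Cyclin E kinase and E2F transcription factors then drive the passage into S phase, where Cdc45, the GINS complex and Mcm10 turn the ring into an active helicase. Primase and polymerases copy the strands, with Pcna as their sliding clamp, replication factor C as the loader of that clamp, and ribonucleotide reductase as a source of deoxynucleotides. Many of these genes are textbook targets of E2F, and most are far more abundant in dividing than in resting cells. Osteoclasts form by fusion of macrophage-like precursors, which stop dividing as they mature.

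E2F binding motifs are a shared feature of many of these genes, so their promoters were searched. The sequences are from RefSeq (GRCm38.p6), and the set used here held a window of 250 bases before to 50 bases after the start of 34 of the 42 genes. It held none for Gins1, Gins2, Gins4, Mcm4, Rfc2, Prim2, Pole and Ccne2. The E2F letters searched on either strand were TTCCCGC, along with the form TTGGCGC, then the form TTCGCGC and finally the form TTGCCGC. A gene was counted if any of its windows held a match. At least 1 of these was found for 22 of the 34 genes (64.7%), against 10.9% of the 27025 genes with a promoter window. CCAAT was found for 22 of 34 (64.7%, against 41.1% of all genes with a window) and GGGCGG for 26 of 34 (76.5%, against 38.2%). Among the genes with a window, E2F letters were present in 3 of 3 that were higher in pamidronate than control libraries, 16 of 24 that were lower and 3 of 7 that were not called. A match is a description of letters and not of a bound site. Shown are 3 promoters with many E2F letters, of genes that were lower in pamidronate than control libraries; Mcm5 and Mcm7 tie with Mcm3 at 3 matches, and Mcm3 comes first by name. Capitals mark the E2F letters, and matches on opposite strands can overlap. The windows are chr1:128359656-128359955 for Mcm6, chrX:93632106-93632405 for Pola1 and chr1:20820263-20820562 for Mcm3, all on the minus strand, with 5, 4 and 3 matches.
Mcm6: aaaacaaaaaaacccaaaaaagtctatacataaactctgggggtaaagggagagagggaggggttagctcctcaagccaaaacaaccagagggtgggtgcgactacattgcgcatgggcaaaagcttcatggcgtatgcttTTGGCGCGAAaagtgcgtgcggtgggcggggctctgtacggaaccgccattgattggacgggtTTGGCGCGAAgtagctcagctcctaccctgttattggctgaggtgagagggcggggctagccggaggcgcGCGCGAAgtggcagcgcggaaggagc
Pola1: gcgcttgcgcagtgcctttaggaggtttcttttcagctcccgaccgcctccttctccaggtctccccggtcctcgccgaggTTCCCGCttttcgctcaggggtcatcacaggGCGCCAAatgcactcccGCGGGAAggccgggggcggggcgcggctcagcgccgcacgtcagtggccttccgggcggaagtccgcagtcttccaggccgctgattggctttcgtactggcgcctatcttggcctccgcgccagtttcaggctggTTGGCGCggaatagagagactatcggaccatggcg
Mcm3: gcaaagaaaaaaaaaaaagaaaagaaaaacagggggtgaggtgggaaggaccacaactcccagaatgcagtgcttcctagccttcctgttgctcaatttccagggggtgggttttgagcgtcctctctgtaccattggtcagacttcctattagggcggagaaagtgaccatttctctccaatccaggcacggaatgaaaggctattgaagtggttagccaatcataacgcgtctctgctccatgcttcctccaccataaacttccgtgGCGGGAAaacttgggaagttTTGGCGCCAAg

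Libraries held 14356069 to 18957968 counts, and the 42 genes took 0.0707% to 0.185% of them. The libraries of a group did not agree equally well on these genes. Values per library are given as CPM, the counts of a gene scaled to the size of its library with TMM factors. The median standard deviation of log2 CPM over the members was 0.37 in pamidronate + GGOH, 0.14 in pamidronate and 0.55 in control libraries, against 0.19, 0.15 and 0.18 over all genes tested. Control 1 was the lowest control for 41 of 42 members, and control 3 the highest for 40. The exception to the first was Rfc4, a clamp loader subunit with 7.18, 7.11 and 7.17 CPM in controls 1, 2 and 3. Of its exon length 12.6% overlaps the more abundant Eif4a2 on the other strand, and whether counting used strand is not given. Control 1 had a median of 53.4% of the mean of the other controls over the members (range 31.1% to 101%), where the median over all genes was 99.9%. Pamidronate + GGOH 3 likewise was the highest of its group for 36 members, at a median of 1.46 times the mean of the other 2 libraries, against 0.996 over all genes. Counts of called members are given with and without these libraries or as a range over left-out libraries, and values of single genes only in part. The labels give 1 batch for all libraries. The control titles call their samples biological replicates. For the other groups nothing says that the samples came from separate cultures, so p-values there measure the spread between these samples, which may be technical. Markers of macrophages were high in all groups, with a summed level of 9282 TPM or more in each library. TPM divides counts by exon length and scales each library to the same sum.

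**Figure D1:**
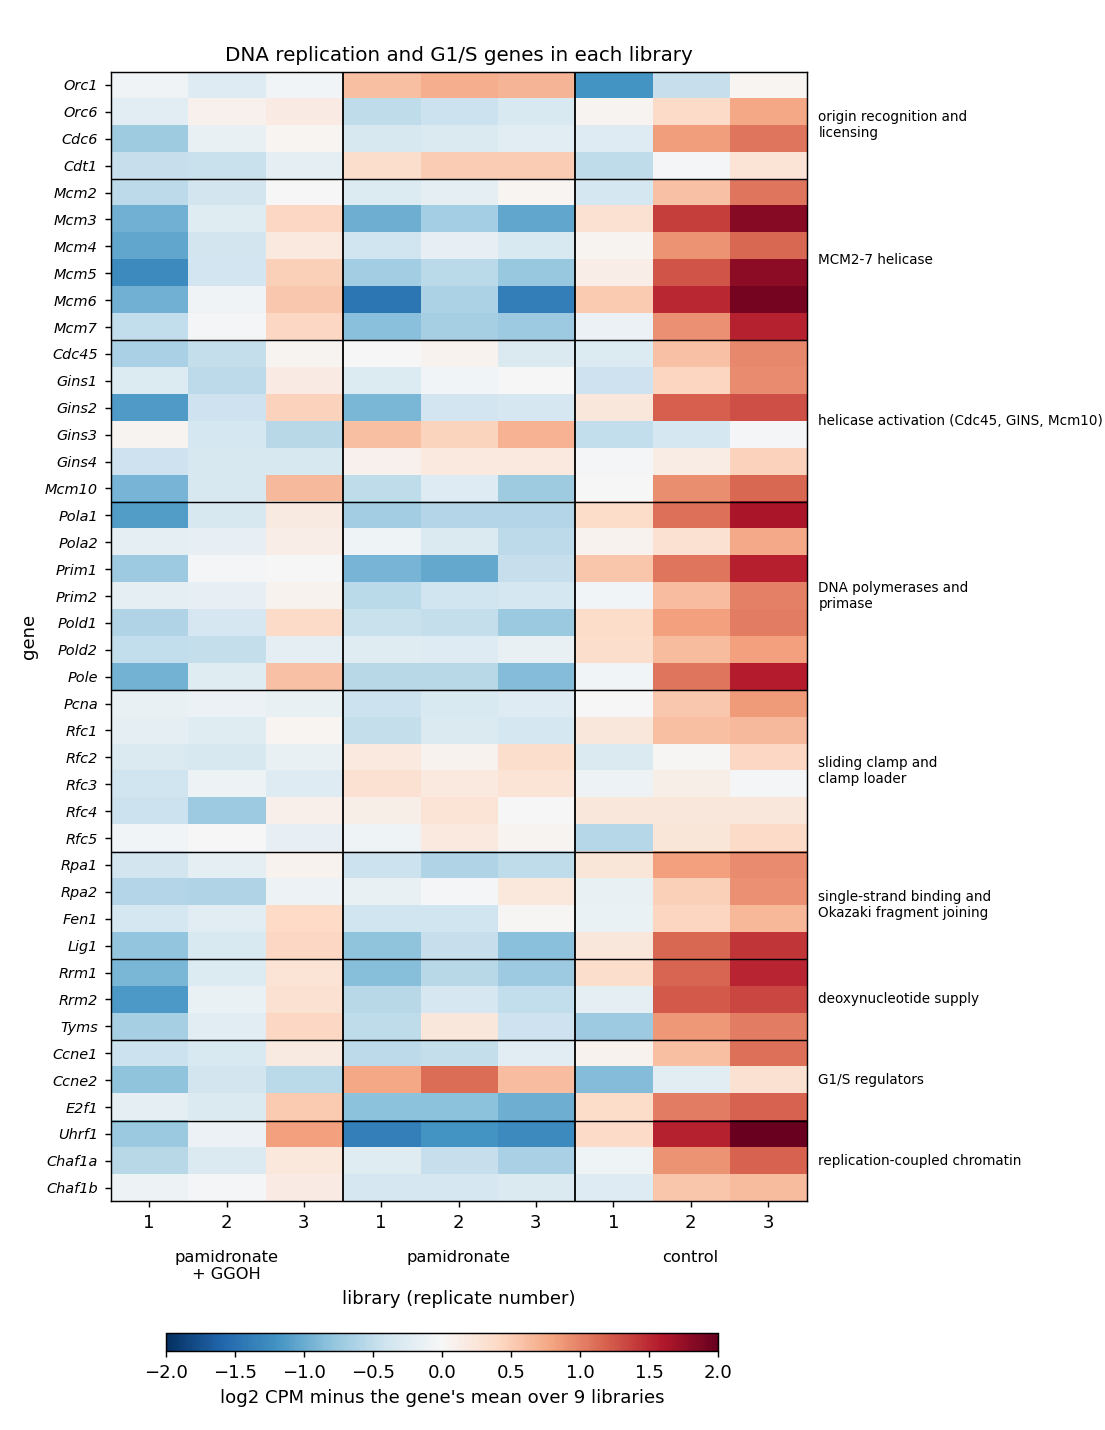
Each column is a library and each row a gene, grouped by role; colour gives log2 CPM minus the gene's mean over the 9 libraries, from blue (low) to red (high). Controls 2 and 3 are the reddest columns, control 1 is paler, and Orc1, Cdt1, Gins3 and Ccne2 are reddest in pamidronate libraries.

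Most of the replication genes had less RNA in pamidronate-treated cells than in control cells, and a small set that includes licensing factors and cyclin E2 had more. Of the 42 genes, 28 fell (66.7%) and 4 rose (9.52%), with edgeR's quasi-likelihood test and Benjamini-Hochberg adjustment over all genes at an adjusted p of 0.05; 10 were not called. In the same comparison 32.9% of all genes tested were lower and 36.2% higher. The median log2 fold change was -0.90 over the members and 0.08 over all genes. The 3 libraries of the groups did not overlap for 31 members (73.8%), close to the 73.4% of all genes. Bulk RNA cannot tell fewer cells in S phase from less RNA per cell. The summed level of the 42 genes was 539, 553 and 547 TPM in pamidronate libraries, against 532, 914 and 1172 TPM in controls. Control 1 thus lay below all 3 pamidronate libraries in this sum, which includes the 4 genes that rose. By share of counts the order was the opposite, at 0.084% in control 1 and 0.0725% to 0.0762% in pamidronate libraries. Gene by gene, control 1 was at or below the highest pamidronate library for 16 of the 42 members and above it for the rest. Without control 1, 33 genes were lower and 4 higher, and over all single libraries left out the lower count ran from 21 to 33. Of the 10 genes not called, 5 thus gained a call without control 1.

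**Figure D2:**
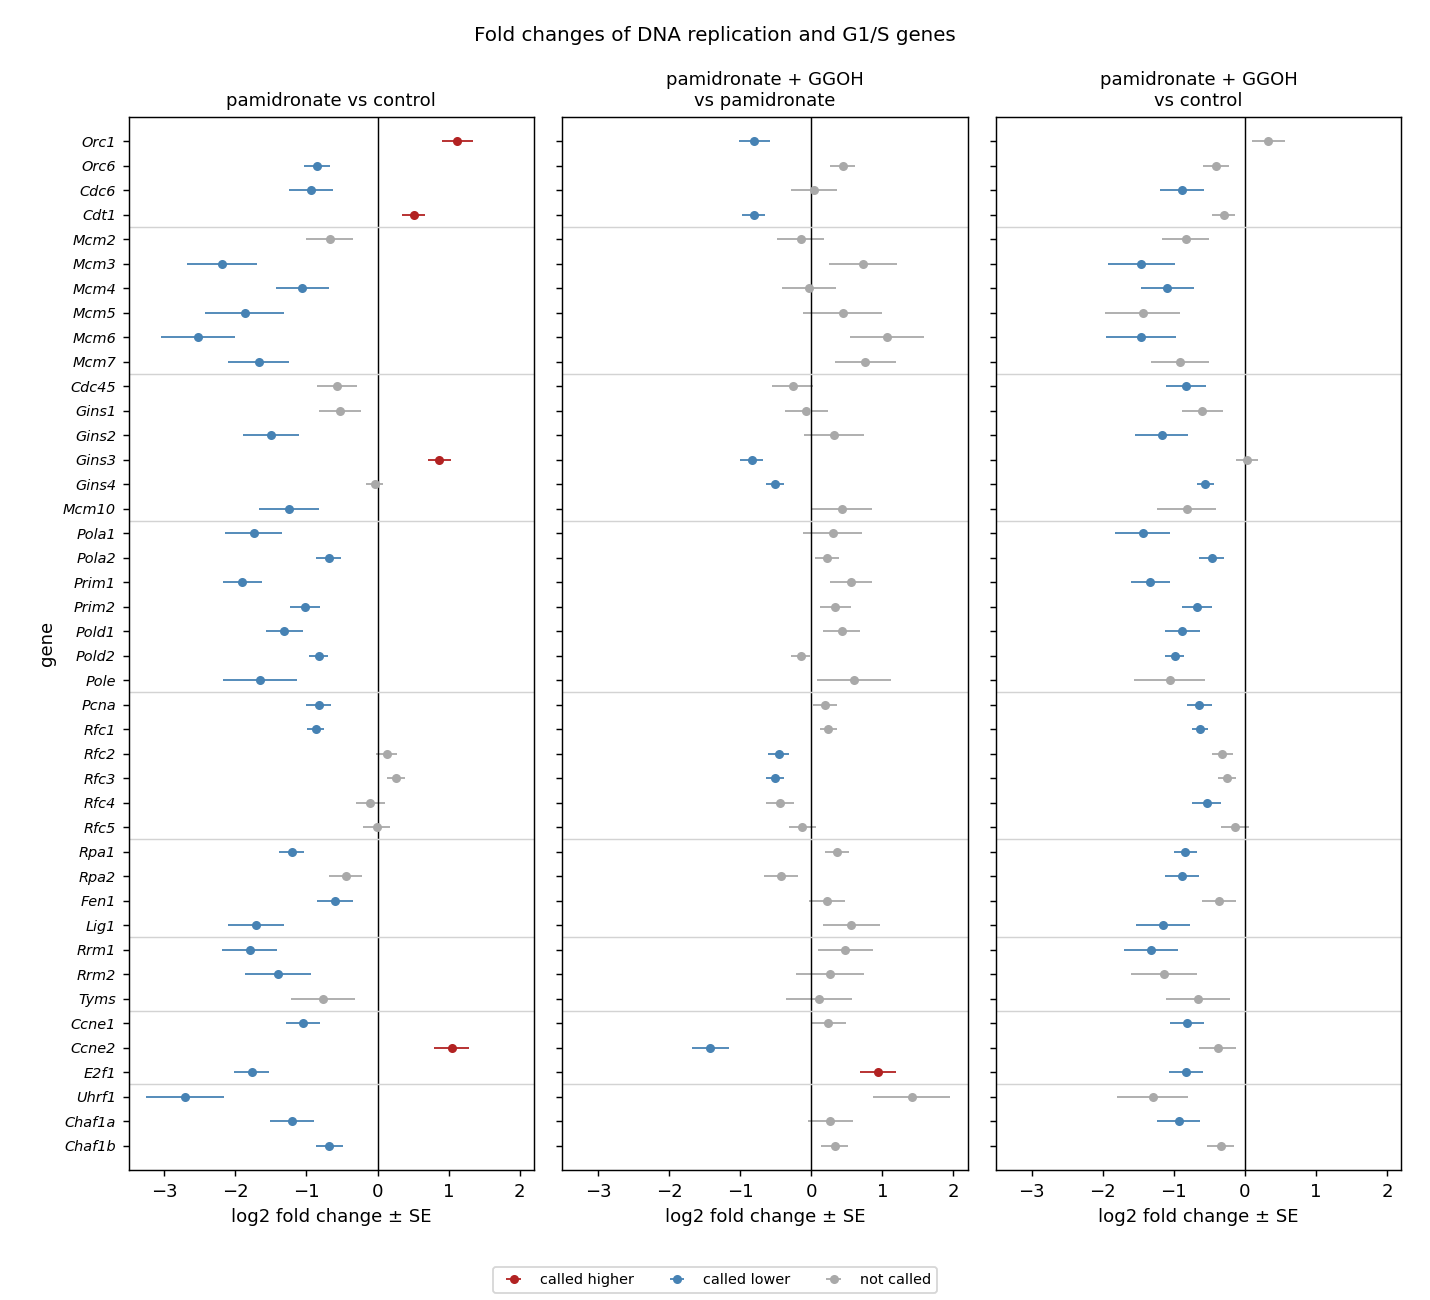
Log2 fold change with its standard error for each of the 42 genes in the 3 comparisons, ordered by role, with colour for the call at an adjusted p of 0.05. In pamidronate against control 28 genes lie to the left as called lower and 4 to the right as called higher.

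The licensing genes split. Orc1, the largest subunit of the origin recognition complex (GRCm38 throughout, chromosome 4, 108579423 to 108614833), had 21.1, 23.1 and 22.2 CPM in pamidronate libraries, against 6.07, 10.1 and 14.3 CPM in controls. Every pamidronate library lay above every control, and Orc1 rose by 1.12 ± 0.22 (SE) on the log2 scale (adjusted p = 0.000786, edgeR). Of its exon length 10.8% overlaps Gm12743 on the other strand, and whether counting used strand is not given in the sources used here. Cdt1, which brings the helicase ring to origins (chromosome 8, 122568015 to 122573554), had 75.1, 83.4 and 83.6 CPM in pamidronate libraries, against 41.3, 57.4 and 71.2 CPM in controls. Again the groups did not overlap, and Cdt1 rose by 0.51 ± 0.16 (SE) on the log2 scale (adjusted p = 0.0132, edgeR). That call was lost without control 2 (adjusted p = 0.053). Orc6, the smallest origin recognition subunit, and Cdc6, the ATPase that helps to load the ring, fell instead, at -0.85 and -0.93. For Cdc6 the groups overlapped, since control 1 (10.9 CPM) lay within the pamidronate range of 10.4 to 11.1 CPM.

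The helicase ring was among the roles with the deepest differences, with 5 of its 6 subunits lower and a median of -1.77. Mcm6 (chromosome 1, 128331590 to 128359664) had 8.19, 14.3 and 8.55 CPM in pamidronate libraries, against 32.1, 63.3 and 83.8 CPM in controls. The lowest control thus stood above the highest pamidronate library, and the fall was 5.78-fold (log2 -2.53 ± 0.52 SE, adjusted p = 0.00415, edgeR). Mcm3 (chromosome 1, 20802968 to 20820312), the most abundant subunit per length, had 22.8, 28.0 and 22.0 CPM in pamidronate libraries, against 55.3, 118 and 159 CPM in controls, a 4.57-fold fall (adjusted p = 0.00574, edgeR). Mcm5, Mcm7 and Mcm4 fell by 1.87, 1.67 and 1.06 on the log2 scale. Mcm2 was not called (-0.67, adjusted p = 0.105), with 28.8 to 35.7 CPM in pamidronate libraries and 27.3 CPM in control 1, which lay below them. Summed over the 6 subunits, the level was 67.5, 76.9 and 68.6 TPM in pamidronate libraries and 102, 222 and 306 TPM in controls.

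The genes that activate the helicase did not move together: 2 fell, 1 rose and 3 were not called. Gins3, a subunit of the 4-part GINS complex (chromosome 8, 95633453 to 95645060), had 25.5, 22.8 and 27.2 CPM in pamidronate libraries, against 11.9, 13.2 and 16.3 CPM in controls. It rose by 0.87 ± 0.16 (SE) on the log2 scale with no overlap (adjusted p = 0.000197, edgeR), while its partner Gins2 fell. Gins2 (chromosome 8, 120578633 to 120589304) had 0.794, 1.14 and 1.18 CPM in pamidronate libraries and 1.75, 3.42 and 3.65 CPM in controls, a change of -1.50 ± 0.39 (SE, adjusted p = 0.00335, edgeR). It was the lowest of the 42 genes in controls per length, at 1.65 TPM, and 67.3% of its exon length overlaps Gse1 on the other strand. Gins4 (chromosome 8, 23226616 to 23237659), the most abundant of this role per length, had 22.9, 24.6 and 24.8 CPM in pamidronate libraries and 20.9, 24.0 and 29.7 CPM in controls, and was not called (-0.04, adjusted p = 0.757). Gins1 (-0.53) and Cdc45 (-0.57), the factor that joins GINS on the ring, were not called either. Mcm10, which helps the assembled helicase to start, fell by 1.25 (adjusted p = 0.025, edgeR).

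All 7 DNA polymerase and primase genes fell, with a median of -1.31. Prim1, the catalytic subunit of primase (chromosome 10, 128015168 to 128030037), had 2.02, 1.90 and 2.79 CPM in pamidronate libraries, against 5.67, 8.12 and 11.3 CPM in controls. The 3.72-fold fall (log2 -1.90 ± 0.28 SE, adjusted p = 2.83e-05, edgeR) left no overlap, and the call was kept whichever library was left out. Pold2, the accessory subunit of polymerase delta (chromosome 11, 5872180 to 5878292), had 17.2, 17.0 and 18.5 CPM in pamidronate libraries, against 26.2, 31.8 and 35.9 CPM in controls, and fell by 0.83 ± 0.13 (SE, adjusted p = 4.14e-05, edgeR). Its controls were closer to each other than those of the helicase ring, with control 1 at 77.4% of the mean of the others. Pola1, the catalytic subunit of polymerase alpha, fell by 1.74 and its partner Pola2 by 0.69. Pold1 and Pole, the catalytic subunits of polymerases delta and epsilon, fell by 1.31 and 1.66, and Prim2, the regulatory primase subunit, by 1.02.

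The clamp fell and most of its loader was not called. Pcna, the sliding clamp (chromosome 2, 132249162 to 132253314), was the highest of the 42 genes per length, at a mean of 136 TPM in controls. It had 74.8, 80.8 and 84.0 CPM in pamidronate libraries, against 100.3, 146 and 181 CPM in controls, and fell by 0.83 ± 0.17 (SE) on the log2 scale (adjusted p = 0.000974, edgeR). The table also lists the pseudogenes Pcna-ps1 and Pcna-ps2, and how the counting shared reads between copies is not given in the sources used here. Rfc1, the large subunit of the clamp loader (chromosome 5, 65261850 to 65335670), had 39.2, 44.7 and 42.8 CPM in pamidronate libraries, against 63.8, 82.8 and 85.4 CPM in controls. Its fall of 0.87 ± 0.12 (SE) had the smallest adjusted p of the 42 genes in this comparison (9.85e-06, edgeR). The small loader subunits Rfc2, Rfc3, Rfc4 and Rfc5 had log2 fold changes of 0.13, 0.26, -0.10 and -0.01, none of them called. On the other strand, Lat2 overlaps 15.1% of the exon length of Rfc2, Eif4a2 12.6% of that of Rfc4 and Wsb2 10.7% of that of Rfc5.

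Among genes that handle single strands and join fragments, Rpa1, the large subunit of the single-strand binding protein (chromosome 11, 75298166 to 75348324), had 36.5, 32.6 and 34.8 CPM in pamidronate libraries, against 58.2, 86.7 and 95.2 CPM in controls. It fell 2.31-fold (adjusted p = 4.89e-05, edgeR). Lig1, the ligase that seals Okazaki fragments (chromosome 7, 13277283 to 13311433), had 9.10, 11.5 and 8.86 CPM in pamidronate libraries, against 18.6, 35.2 and 42.7 CPM in controls, and fell 3.27-fold (adjusted p = 0.00536, edgeR). Fen1, the flap nuclease, fell by 0.60 on the log2 scale (adjusted p = 0.0423, edgeR) with overlapping groups, and 78.8% of its exon length overlaps Gm10143 on the other strand. Rpa2 was not called (-0.45, adjusted p = 0.0999).

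Both subunits of ribonucleotide reductase fell. Rrm1, the large subunit (chromosome 7, 102441695 to 102469771), had 27.0, 33.2 and 29.2 CPM in pamidronate libraries, against 61.8, 109 and 140.2 CPM in controls, a 3.48-fold fall (log2 -1.80 ± 0.39 SE, adjusted p = 0.00485, edgeR). Rrm2, the small subunit, fell by 1.40 on the log2 scale. Tyms, which makes thymidylate, was not called (-0.77, adjusted p = 0.158). Its control 1, at 2.98 CPM, was 31.1% of the mean of the other controls, the lowest such share among the members.

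The G1/S regulators moved in opposite directions. E2f1, an activating E2F factor (chromosome 2, 154559407 to 154569892), had 7.15, 7.15 and 6.38 CPM in pamidronate libraries, against 16.2, 25.6 and 28.7 CPM in controls. It fell 3.41-fold with no overlap (log2 -1.77 ± 0.25 SE, adjusted p = 7.31e-05, edgeR). Ccne1, cyclin E1 (chromosome 7, 38097984 to 38107534), had 9.04, 9.30 and 11.2 CPM in pamidronate libraries, against 13.7, 19.7 and 27.9 CPM in controls, and fell 2.07-fold (adjusted p = 0.00257, edgeR). Ccne2, cyclin E2, which acts with the same kinase (chromosome 4, 11191351 to 11204779), went the other way. It had 23.6, 30.1 and 21.2 CPM in pamidronate libraries, against 7.59, 11.8 and 17.1 CPM in controls, and rose 2.06-fold (log2 1.04 ± 0.25 SE, adjusted p = 0.00365, edgeR). Of its exon length 17.4% overlaps Ints8 on the other strand.

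The genes that rebuild chromatin behind the fork all fell. Uhrf1, which brings the maintenance methyltransferase to newly copied DNA (chromosome 17, 56303321 to 56323486), had 9.04, 10.2 and 9.66 CPM in pamidronate libraries, against 30.4, 67.9 and 91.7 CPM in controls. At 6.56-fold (log2 -2.71 ± 0.55 SE, adjusted p = 0.00365, edgeR) it was the deepest fall of the 42 genes. Chaf1a and Chaf1b, subunits of the histone chaperone CAF-1, fell by 1.20 and 0.68 on the log2 scale. Of the exon length of Chaf1a 18.7% overlaps Ubxn6 on the other strand. Of the 28 lower calls, 21 were kept whichever single library was left out. The 7 others were Cdc6, Mcm4, Mcm5, Mcm10, Pole, Fen1 and Rrm2, which lost the call without some of control 2, control 3 and the pamidronate libraries (adjusted p up to 0.123, edgeR) and kept it without control 1. Cdc6, Mcm4 and Fen1 also lost it with upper-quartile factors (adjusted p = 0.0511, 0.059 and 0.152).

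**Figure D3:**
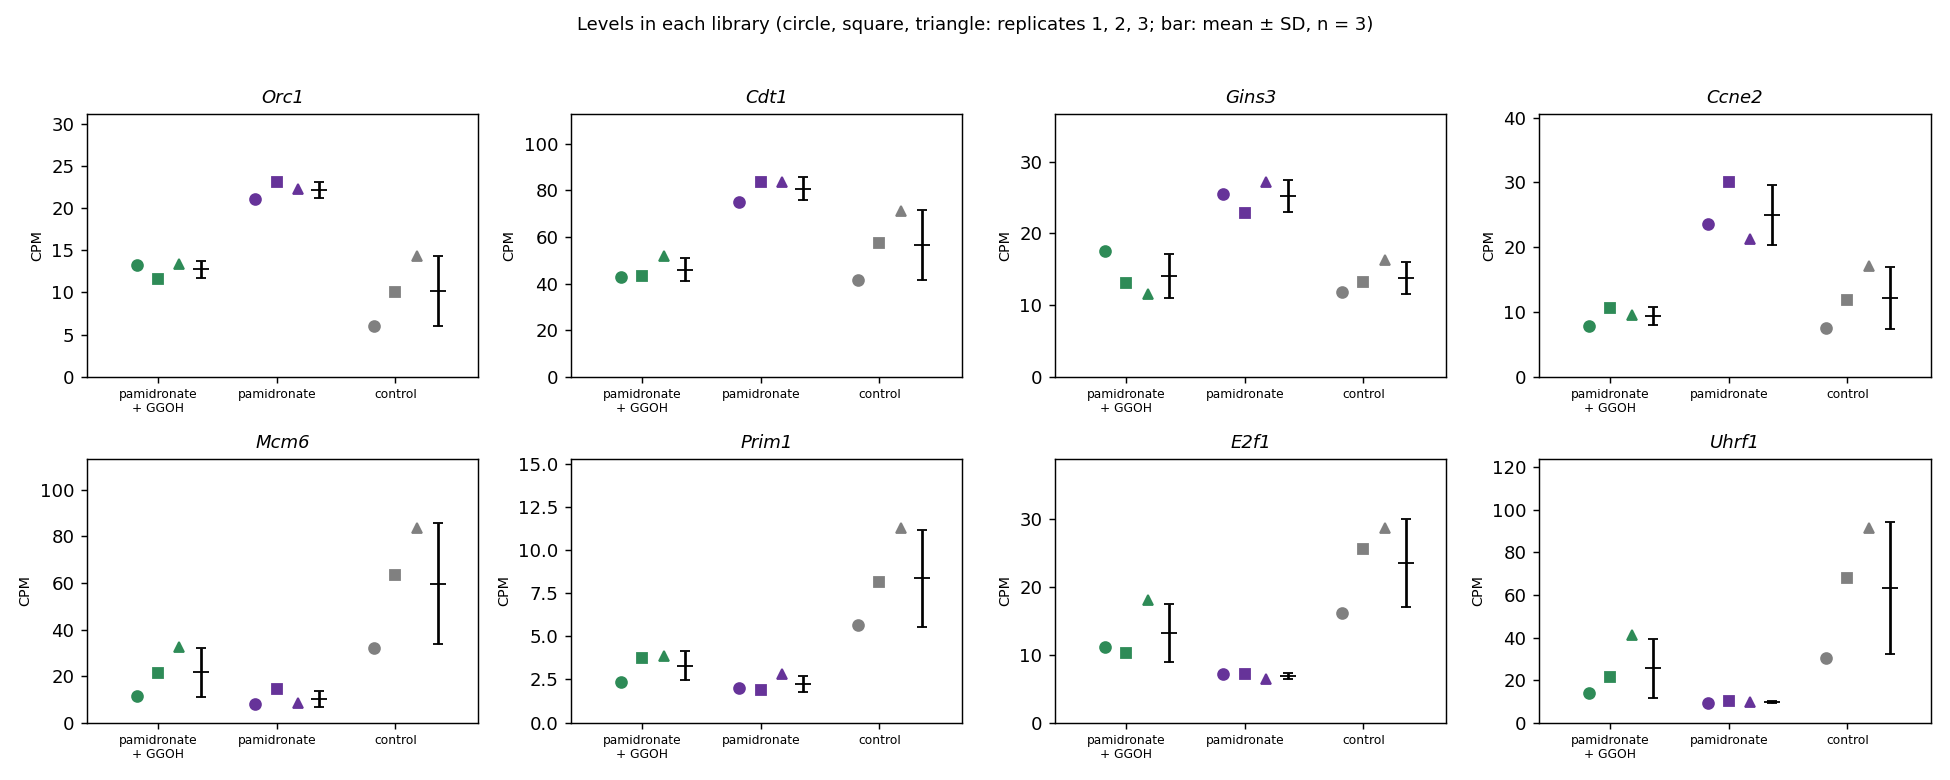
CPM in each library for 8 genes, with replicates 1, 2 and 3 as circle, square and triangle and a bar for mean ± SD (n = 3). The upper row holds the 4 genes that were higher in pamidronate than control libraries, and in the lower row all controls lie above all pamidronate libraries.

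When GGOH was added to pamidronate, cyclin E2, the licensing genes Orc1 and Cdt1 and some GINS and clamp loader genes had less RNA than with pamidronate alone, and E2f1 had more. Of the 42 genes, 7 fell in pamidronate + GGOH against pamidronate (16.7%), namely Orc1, Cdt1, Gins3, Gins4, Rfc2, Rfc3 and Ccne2, and 1 rose (2.38%), E2f1; 34 were not called (edgeR). Among all genes tested 23.6% were lower and 25.2% higher. Libraries did not overlap for 16 members (38.1%), against 59.6% of all genes. The median log2 fold change was 0.24 over the members and 0.00 over all genes, but -0.03 without pamidronate + GGOH 3. This comparison and the one with the control share the pamidronate libraries, so the opposite signs of Orc1, Cdt1, Gins3 and Ccne2 are given as values only.

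Ccne2 had 7.89, 10.7 and 9.52 CPM in pamidronate + GGOH libraries, against 23.6, 30.1 and 21.2 CPM in pamidronate libraries, the deepest fall at 2.67-fold (log2 -1.42 ± 0.26 SE, adjusted p = 0.00104, edgeR). Cdt1 had 42.9, 43.4 and 51.7 CPM with GGOH, against 75.1, 83.4 and 83.6 CPM with pamidronate alone (log2 -0.81 ± 0.16 SE, adjusted p = 0.00142, edgeR). All the GGOH libraries of these genes lay below all the pamidronate ones. Gins3 had 17.5, 13.1 and 11.5 CPM with GGOH, against 22.8 to 27.2 CPM with pamidronate alone (log2 -0.84 ± 0.16 SE, adjusted p = 0.000509, edgeR). Orc1 had 13.2, 11.6 and 13.4 CPM with GGOH, against 21.1 to 23.1 CPM with pamidronate alone (log2 -0.80 ± 0.22 SE, adjusted p = 0.0107, edgeR). The Orc1 call was lost without pamidronate + GGOH 2 (adjusted p = 0.0569).

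Gins4 and the loader subunits Rfc3 and Rfc2 fell with GGOH although pamidronate alone had given no call for them. Gins4 had 16.2, 17.3 and 17.2 CPM with GGOH, against 22.9, 24.6 and 24.8 CPM with pamidronate alone (log2 -0.51 ± 0.12 SE, adjusted p = 0.00351, edgeR). Rfc3 had 7.83, 9.59 and 8.67 CPM with GGOH, against 12.8, 11.8 and 12.5 CPM with pamidronate alone (log2 -0.51 ± 0.13 SE, adjusted p = 0.00562, edgeR). In both genes the groups stood apart. Rfc2 fell by 0.46 (adjusted p = 0.0197, edgeR), but was not called without pamidronate 3 (adjusted p = 0.0784), pamidronate + GGOH 1 (0.0806) or pamidronate + GGOH 2 (0.1); 15.1% of its exon length overlaps Lat2 on the other strand.

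E2f1 had 11.1, 10.3 and 18.1 CPM with GGOH, against 7.15, 7.15 and 6.38 CPM with pamidronate alone, and rose 1.91-fold (log2 0.94 ± 0.25 SE, adjusted p = 0.0102, edgeR). Its groups did not overlap and the call was kept whichever library was left out. The genes that had fallen furthest with pamidronate were not called here. Uhrf1 had 14.0, 21.6 and 41.1 CPM with GGOH, against 9.04, 10.2 and 9.66 CPM with pamidronate alone (log2 1.41 ± 0.54 SE, adjusted p = 0.072, edgeR). Mcm6 had 11.4, 21.3 and 32.3 CPM with GGOH, against 8.19, 14.3 and 8.55 CPM with pamidronate alone (log2 1.07 ± 0.52 SE, adjusted p = 0.138, edgeR). In both, pamidronate + GGOH 3 was the highest of the 6 libraries, and for Mcm6 the groups overlapped. The count of genes called higher depended on single libraries: it was 7 without control 1, 4 without control 3, 6 without pamidronate + GGOH 1 and 2 without pamidronate + GGOH 2. Controls enter this count through the shared estimate of the spread.

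None of the 6 helicase subunits, 7 polymerase and primase genes, 4 single-strand and joining genes, 3 deoxynucleotide genes or 3 chromatin genes was called in either direction with GGOH against pamidronate. Their median log2 fold changes were 0.58, 0.34, 0.29, 0.26 and 0.33, and 0.15, 0.14, 0.10, -0.06 and 0.30 without pamidronate + GGOH 3. Summed over the helicase ring, the level was 65.2, 106 and 158 TPM with GGOH, against 67.5, 76.9 and 68.6 TPM with pamidronate alone. Over the chromatin genes it was 23.1, 31.0 and 47.8 TPM with GGOH, against 18.4, 17.3 and 16.8 TPM. For the licensing genes the order turned round, at 62.5, 69.0 and 78.6 TPM with GGOH against 89.0, 93.2 and 94.5 TPM, and so it did for helicase activation, at 65.0, 66.8 and 72.8 TPM against 83.9, 82.4 and 85.0 TPM.

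**Figure D4:**
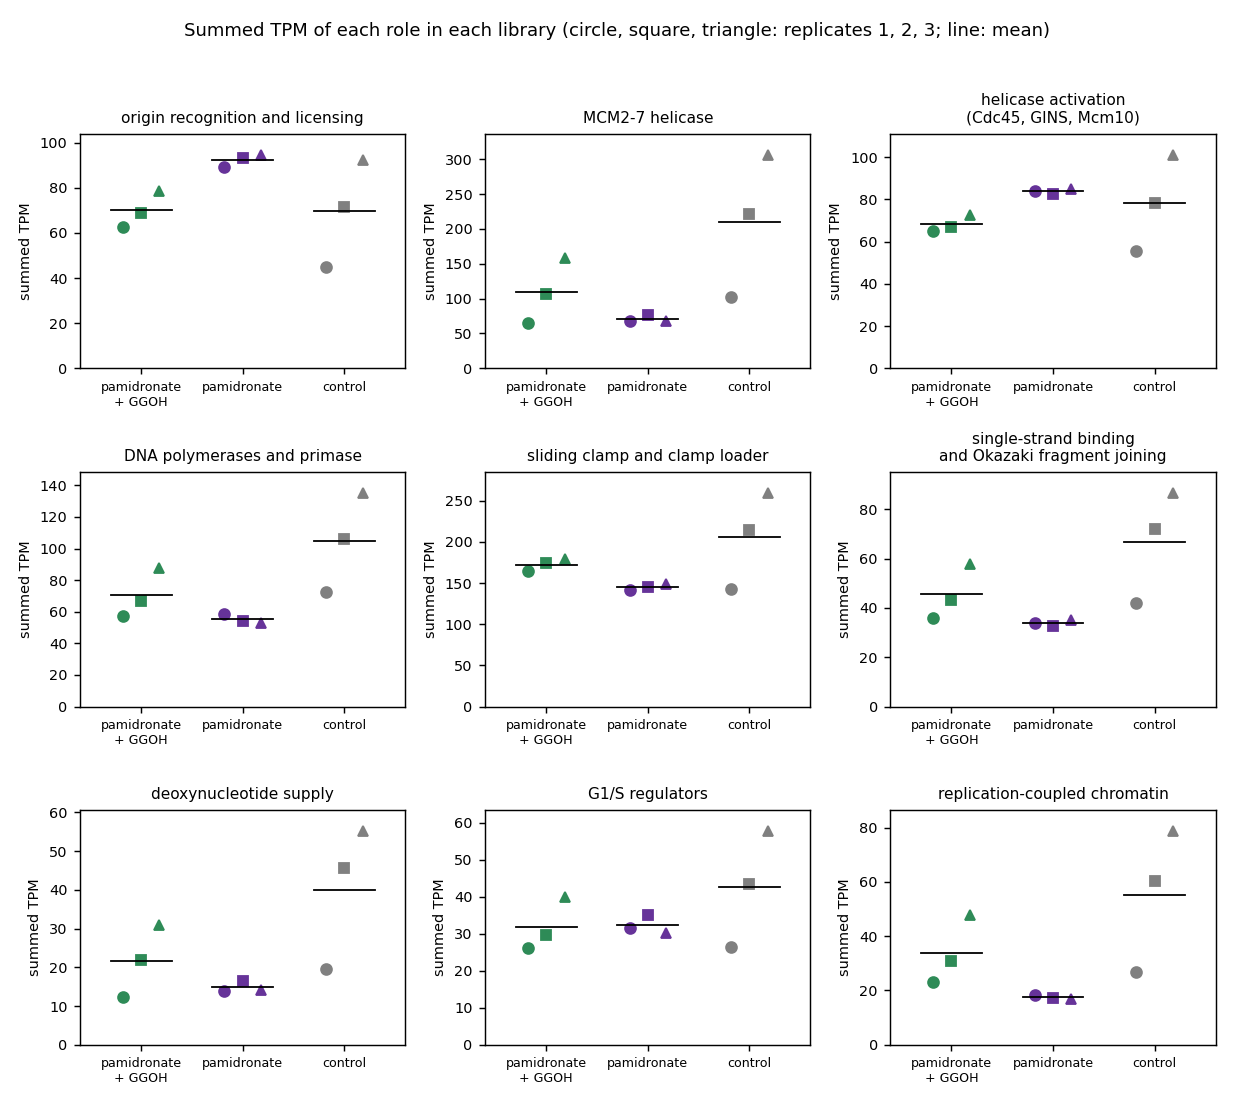
Summed TPM of the genes of each of 9 roles in each library, with replicates 1, 2 and 3 as circle, square and triangle and a line at the mean. The sums for licensing and helicase activation are higher in all pamidronate than in all pamidronate + GGOH libraries, though not each of their genes is. The sum for the helicase ring is lower in all pamidronate libraries than in all controls.

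With both compounds, polymerase, clamp and single-strand binding genes were among those with less RNA than in the control, and no gene was called higher. Of the 42 genes, 23 fell (54.8%), 19 were not called and 0 rose in pamidronate + GGOH against control (edgeR), where 26.0% of all genes tested were lower and 26.3% higher. At an unadjusted p under 0.05 there were also 0 higher, as there were with DESeq2 and limma-voom. The median log2 fold change was -0.83 over the members and 0.02 over all genes, and libraries did not overlap for 10 members (23.8%), against 58.2% of all genes. With upper-quartile factors 13 genes fell; there the median of all genes was 0.23 and the split over all genes was 16.3% lower and 36.5% higher. The number of lower calls also rested on single libraries. It was 38 without control 1 and 28 without pamidronate + GGOH 3, but 13 without control 2, 10 without control 3, 9 without pamidronate + GGOH 1 and 8 without pamidronate + GGOH 2. Without control 3, Orc1 was called higher (adjusted p = 0.0104, edgeR). Calls kept whichever library was left out were those of Gins4, Prim1, Pold2, Pcna, Rfc1, Rpa1 and Rpa2.

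Prim1 had 2.33, 3.74 and 3.84 CPM in pamidronate + GGOH libraries, against 5.67, 8.12 and 11.3 CPM in controls (log2 -1.33 ± 0.27 SE, adjusted p = 0.000838, edgeR). Pold2 had 14.6, 14.7 and 17.9 CPM with both compounds, against 26.2, 31.8 and 35.9 CPM in controls (log2 -0.99 ± 0.13 SE, adjusted p = 3.27e-05, edgeR). Neither gene had any overlap. Pcna was nearly the same in all 3 libraries with both compounds, at 90.2, 92.9 and 90.8 CPM, against 100.3, 146 and 181 CPM in controls (log2 -0.64 ± 0.17 SE, adjusted p = 0.00767, edgeR). Rfc1 had 48.0, 46.0 and 55.7 CPM with both compounds, against 63.8, 82.8 and 85.4 CPM in controls (log2 -0.63 ± 0.11 SE, adjusted p = 0.000424, edgeR). Rpa1 had 38.4, 43.7 and 51.8 CPM with both compounds, against 58.2, 86.7 and 95.2 CPM in controls (log2 -0.84 ± 0.16 SE, adjusted p = 0.00133, edgeR). These clamp, loader and single-strand binding genes were thus lower in each library of the treated group than in any control.

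Mcm3 had 23.0, 37.9 and 59.7 CPM with both compounds, against 55.3, 118 and 159 CPM in controls, and fell by 1.46 on the log2 scale (adjusted p = 0.0364, edgeR), with control 1 below pamidronate + GGOH 3. Rrm1 had 25.7, 40.0 and 58.5 CPM with both compounds, against 61.8, 109 and 140.2 CPM in controls, and fell by 1.32 (adjusted p = 0.0239, edgeR). Lig1 had 9.20, 12.9 and 21.1 CPM with both compounds, against 18.6, 35.2 and 42.7 CPM in controls, and fell by 1.15 (adjusted p = 0.0355, edgeR). The last 3 calls were not among those kept under every left-out library. E2f1 and Ccne1 fell by 0.83 and 0.81, while Ccne2 (-0.38, adjusted p = 0.247), Orc1 (0.33, adjusted p = 0.243), Cdt1 (-0.30, adjusted p = 0.139) and Gins3 (0.03, adjusted p = 0.903) were not called. Ccne2 had 7.89 to 10.7 CPM with both compounds and 7.59 to 17.1 CPM in controls. Gins2, with 0.681, 1.12 and 2.05 CPM with both compounds, fell by 1.17 (adjusted p = 0.0168, edgeR). Uhrf1 was not called (-1.30, adjusted p = 0.067). Relative to the mean of the other controls, control 1 stood at 52.5% for Ccne2, 49.8% for Orc1 and 64.2% for Cdt1. It stood at 80.7% for Gins3 and 38.1% for Uhrf1. With control 1 left out, 16 members gained a lower call and 1 lost its call. Genes not called here thus need not be at the control level.

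Lists of 96 other genes of the same pathways were set beside the members. In pamidronate against control 20 of the 96 rose (20.8%, against 36.2% of all genes) and 56 fell (58.3%, against 32.9%), and the median log2 fold change was -0.48. Among them were 32 other replication factors, of which 8 rose and 16 fell (5 and 17 without control 1, 5 and 13 without control 2, 5 and 12 without pamidronate 2, 11 and 10 with upper-quartile factors). Dscc1 and Chtf18, subunits of an alternative clamp loader, fell by 2.41 and 2.21, and Top2a, the topoisomerase of dividing cells, by 2.12, a call lost without pamidronate 1 (adjusted p = 0.0543) or pamidronate 3 (0.0596). Gmnn encodes geminin, the inhibitor that binds Cdt1. It had 1.53, 2.02 and 1.61 CPM in pamidronate libraries, against 3.68, 5.54 and 7.23 CPM in controls, and fell 3.18-fold (adjusted p = 6.24e-05, edgeR), where Cdt1 rose. Of 13 deoxynucleotide genes 1 rose, Shmt1 of the folate cycle (1.04), and 10 fell, with Dck, deoxycytidine kinase, at -1.79 and Mthfd1, also of the folate cycle, at -0.97. Of 10 other chromatin genes 1 rose and 8 fell, among them the histone chaperone Asf1b (-1.95), the chromatin remodeller Hells (-1.14), the histone-binding Rbbp7 (-0.78) and the maintenance methyltransferase Dnmt1 (-0.47). The call of Dnmt1 was lost without any one of 5 libraries of these groups (adjusted p up to 0.146) and with upper-quartile factors (0.168).

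Of 26 genes of cyclin, CDK, Rb and E2F control in G1, 4 rose and 20 fell in pamidronate against control. Cdkn1a, the kinase inhibitor p21, had 507, 555 and 424 CPM in pamidronate libraries, against 218, 255 and 208 CPM in controls, a 2.18-fold rise (adjusted p = 6.65e-07, edgeR). Ccnd1, cyclin D1, had 79.9, 83.0 and 68.3 CPM in pamidronate libraries, against 329, 385 and 361 CPM in controls, a 4.65-fold fall (adjusted p = 7.91e-08, edgeR). For Cdkn1a control 1 lay between the other controls, and for Ccnd1 it was the lowest of them. Ccnd2, cyclin D2, fell by 2.98, and E2f8, a repressor E2F, by 3.01. Tfdp2, a partner of E2F factors, fell by 2.48 and Rb1, which encodes the retinoblastoma protein, by 0.62. Ccna2, cyclin A2, fell by 2.50 (adjusted p = 0.031, edgeR), a call lost without any one of control 2, control 3 or the pamidronate libraries (adjusted p up to 0.0966). Of the 15 checkpoint genes 6 rose, 40.0% and so near the 36.2% of all genes, and 2 fell (13.3%, against 32.9% of all genes). That count depended on single libraries, at 5 and 5 without control 1, 7 and 1 without control 3, and 6 and 0, 5 and 1 or 4 and 1 without pamidronate 1, 2 or 3. Chek1, the kinase that answers stalled forks, had 45.2, 47.6 and 50.0 CPM in pamidronate libraries, against 5.96, 10.5 and 14.8 CPM in controls, a 4.58-fold rise (adjusted p = 0.000249, edgeR). Atrip, a partner of the kinase ATR, rose by 1.67. Wee1, which restrains cyclin-dependent kinases, rose by 0.44 (adjusted p = 0.0375, edgeR), a call lost when some single libraries were left out. Bard1, the partner of BRCA1, fell by 1.53, a call lost without pamidronate 1 (adjusted p = 0.0647) or pamidronate 3 (0.0628).

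With GGOH against pamidronate alone, 14 of the 96 pathway genes rose (14.6%, against 25.2% of all genes) and 23 fell (24.0%, near the 23.6% of all genes); their median log2 fold change was 0.02. Without control 1 the counts were 22 and 29. Cdkn1a had 203, 197 and 229 CPM with GGOH, against 507, 555 and 424 CPM with pamidronate alone, a 2.36-fold fall (adjusted p = 1.38e-06, edgeR). Ccnd1 had 200.3, 226 and 317 CPM with GGOH, against 79.9, 83.0 and 68.3 CPM with pamidronate alone, a 3.22-fold rise (adjusted p = 2.94e-06, edgeR). Ccnd2 had 20.9, 25.3 and 36.0 CPM with GGOH, against 1.71, 2.15 and 3.34 CPM with pamidronate alone, and rose by 3.51 on the log2 scale (adjusted p = 0.0021, edgeR). Tfdp2 and Dck rose by 0.98 and 1.17. Chek1 had 22.6, 20.2 and 13.0 CPM with GGOH, against 45.2, 47.6 and 50.0 CPM with pamidronate alone, and fell by 1.36 (adjusted p = 0.00529, edgeR). Wee1 fell by 1.08 and Atrip by 0.74, a call that Atrip lost without pamidronate + GGOH 3 (adjusted p = 0.0733). Gmnn (0.29, adjusted p = 0.427) and Rb1 (-0.19, adjusted p = 0.202) were not called.

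With both compounds against control, 5 of the 96 rose (5.21%, against 26.3% of all genes) and 48 fell (50.0%, against 26.0%); their median log2 fold change was -0.52. Upper-quartile factors gave 9 and 29 instead, and the higher count was 3 without control 2, pamidronate + GGOH 1 or pamidronate + GGOH 2. Gmnn fell by 1.38 (adjusted p = 0.000547, edgeR), Rb1 by 0.80, Ccnd1 by 0.53, Rbbp7 by 0.93 and Dnmt1 by 0.87. Cdkn1a was not called (-0.11, adjusted p = 0.414), nor was Chek1 (0.84, adjusted p = 0.051).

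Markers of later cell cycle stages were measured beside the replication genes. The 12 G2 and mitosis markers summed to 87.7, 139 and 227 TPM in pamidronate + GGOH, 114, 129 and 107 TPM in pamidronate and 97.0, 304 and 438 TPM in control libraries 1, 2 and 3. Control 1 and pamidronate + GGOH 1 were thus the lowest of their groups in both sums. Mki67, which encodes the proliferation antigen Ki-67, had 103, 129 and 105 CPM in pamidronate libraries, against 109, 366 and 542 CPM in controls, and was not called (-1.59, adjusted p = 0.07); it was called lower by DESeq2 (adjusted p = 0.0174), by limma-voom (0.0305) and without control 1 (0.012). In pamidronate against control 4 of the 12 markers fell (33.3%, near the 32.9% of all genes), namely Ccnb2 (-2.86), Kif11 (-2.18), Aurkb (-1.67) and Bub1 (-1.10), and 0 rose (also 0 at an unadjusted p under 0.05, by DESeq2 and by limma-voom). The median log2 fold change of the 12 markers was -1.36, against 0.08 over all genes. At an unadjusted p under 0.05 (edgeR) 6 were lower, and 8 were called lower by DESeq2 and 6 by limma-voom. Without control 1, 10 of the 12 fell. In pamidronate + GGOH against pamidronate 0 of 12 were called by edgeR, where 25.2% of all genes were higher and 23.6% lower. There 0 had an unadjusted p under 0.05, and 0 were called by DESeq2 or limma-voom. Without control 1, 1 rose and 1 fell. In pamidronate + GGOH against control the median log2 fold change of the markers was -1.21, and 2 fell (16.7%, against 26.0% of all genes). That count was 11 without control 1 and 1 without any one pamidronate library. It was 0 without control 2, control 3, pamidronate + GGOH 1 or pamidronate + GGOH 2. The Ccnb2 call in pamidronate against control was lost without pamidronate 1 (adjusted p = 0.0528) or pamidronate 3 (0.0571). RNAs with histone gene symbols made up 0.0454%, 0.059% and 0.084% of counts in pamidronate + GGOH, 0.0496%, 0.0518% and 0.0563% in pamidronate and 0.0609%, 0.127% and 0.175% in control libraries.

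**Figure D5:**
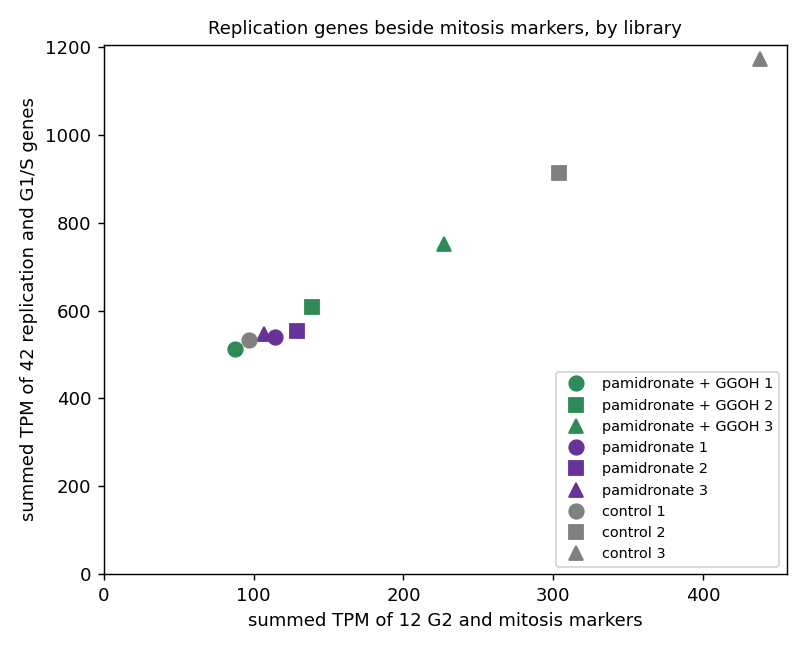
Summed TPM of the 42 replication and G1/S genes (vertical) against that of 12 G2 and mitosis markers (horizontal), 1 point per library. Control 1 lies with the pamidronate libraries and pamidronate + GGOH 1, and controls 2 and 3 lie highest on both axes.

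Other features of the libraries also moved with the groups. Mitochondrial RNAs took 5.43% to 6.31% of counts in pamidronate + GGOH, 3.71% to 5.19% in pamidronate and 10.4% to 10.8% in control libraries, where control 1 was like the other controls. Of 10 macrophage markers 9 were lower in pamidronate than control, where 32.9% of all genes were lower. The sums of these markers were 14487 to 21099 TPM in pamidronate + GGOH, 9282 to 13519.7 TPM in pamidronate and 27588 to 33159 TPM in controls. Of 10 osteoclast markers 7 were tested, of which 4 were higher (36.2% of all genes were) and 1 lower (32.9%) in pamidronate than control. Their sums were 262 to 278 TPM in pamidronate + GGOH, 287 to 417 TPM in pamidronate and 108 to 134 TPM in controls. Calcr, the calcitonin receptor of mature osteoclasts, is listed at 0 in pamidronate and control libraries, but not in every pamidronate + GGOH library. No other marker of this list was at 0 throughout a group. Endothelial markers summed to 10.3 to 26.6 TPM in pamidronate + GGOH, 2.74 to 3.5 TPM in pamidronate and 0.301 to 0.492 TPM in controls, with Tek at a mean of 17.2, 2.58 and 0.0649 TPM in the same order. For fibroblast markers the sums were 1.11 to 1.71, 0.509 to 0.808 and 3.82 to 4.48 TPM in the same order of groups. Epithelial markers reached at most 1.47 TPM and lymphocyte markers at most 2.64 TPM in any library. The part of these features in the replication gene results was not tested.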

How the data were processed

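RNA of 9 libraries was sequenced after preparation with a total RNA kit with ribosomal RNA removal from 300 ng, per the labels' protocols. Per the submitters' processing notes, reads were trimmed with Trimmomatic 0.36, the build was GRCm38, and DESeq is named with no role. The sources used here do not give the aligner, the counter or its use of strand. The deposited table holds raw counts per gene, and a second deposited table holds TPM, recomputed here from the counts and exon lengths with a largest difference of 5e-05. TPM served for sums and for levels between genes only.

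Of 49315 genes, edgeR 4.0.16's filterByExpr (R 4.3.3) kept 15963. Counts were scaled with TMM factors, and 1 quasi-likelihood model (robust) of the 3 group means gave each contrast, with Benjamini-Hochberg adjustment over all genes. CPM values use the same factors, and the SE is the absolute log2 fold change over the root of F. The model had 6 residual degrees of freedom and a biological coefficient of variation of 0.127. On simulated data with 15963 genes in the pamidronate and control groups, 67, 67 and 66 genes were changed 1.5-, 2- and 4-fold. The model recovered 51%, 84% and 95% of them, with 11 unchanged genes called. Far fewer genes were changed there than were called in the real comparison, so these rates need not hold for the real data. Rows without a symbol (174) were kept under their identifiers.

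The settings varied were the scaling (RLE or upper-quartile factors), the filter (none, or 1 CPM), DESeq2 1.42.0, limma-voom (limma 3.58.1), the 2 groups alone, an adjusted p of 0.01, a replicate block and each library left out. Leaving out control 1 and pamidronate + GGOH 3 together was chosen after seeing the data. The members and lists were chosen with earlier results of these data known. Values in each library were given for the member of each role with the highest mean TPM, the one with the largest fold change in pamidronate against control and any that moved against its role; up to 4 called genes were named from each pathway list, plus Cdkn1a, Ccnd1, Rb1 and Gmnn, and in addition the G2 and mitosis markers that were called and Mki67, chosen after their values were seen. A pathway gene that the rule took is not reported here. Library totals of 14356069 to 18957968 limit the precision together with the spread between libraries.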

Additional observations from a re-analysis of the deposited data

How the results depend on the processing

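For pamidronate against control, the counts of 28 lower and 4 higher genes stayed within 1.5 times under every alternative run; upper-quartile factors gave 25 and 5 (Rfc3 added, adjusted p = 0.0071), with a median of all genes of 0.28 in place of 0.08. For pamidronate + GGOH against pamidronate, 1 gene was higher by edgeR; the count was 6 with no filter, 2 with DESeq2, 6 with the 2 groups alone, 0 at an adjusted p under 0.01, 3 with control 1 and pamidronate + GGOH 3 both left out, and 1 to 7 with single libraries left out. Its lower count of 7 was 5 to 8 with single libraries left out and 10 with both left out, where the median was -0.07; with single libraries left out the median ran from -0.03 to 0.41. For pamidronate + GGOH against control, 23 lower calls became 13 with upper-quartile factors, 13 with the 2 groups alone, 7 at an adjusted p under 0.01 and 39 with both left out (median -1.30), and 8 to 38 with single libraries left out; the higher count of 0 became 1 in one of these. The cause was not tested. Over 2394 values of single members under alternatives, 2108 stayed on their side of the threshold, 166 lost and 120 gained a call. In 42 the sign changed, each of them a gene not called in either setting. Replicate numbers are shared by the groups, but same-numbered libraries correlated at -0.224 to 0.204 in their deviations from group means over all genes, so the numbers were not taken to pair the libraries. Over the members alone, the same-numbered pamidronate + GGOH and control libraries correlated at 0.691, 0.169 and 0.502, and all same-numbered pairs at -0.359 to 0.691. With a replicate block the lower counts were 30 for pamidronate against control, 8 for pamidronate + GGOH against pamidronate (5 higher) and 32 for pamidronate + GGOH against control. Genes at a few CPM, such as Gins2, Gins1 and Prim1, rest on the fewest counts.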
